A study of Caenorhabditis elegans with 2 samples.

Results

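The insulin-like peptide genes of Caenorhabditis elegans are the protein-coding genes of the class ins together with daf-28, and they were taken from the WBcel235 annotation by name alone. They number 39 of the 19973 protein-coding genes on the nuclear chromosomes. Binding of the transcription factor HLH-30 was examined at their promoters by chromatin immunoprecipitation and sequencing (ChIP-seq) with an antibody against GFP. All animals were whole L4 hermaphrodites of strain OP433, which carries unc-119(tm4063) on chromosome III and the transgene wgIs433, an insertion that makes HLH-30 with a GFP-FLAG tag at its C-terminus. There was 1 group, with 2 biological replicates from separate biosamples, so no conditions could be compared. Both replicates share the strain, the tag and the stage. Whole animals were used, so binding in fewer cells and weaker binding per cell cannot be told apart.

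Insulin-like peptides are secreted signals. Most are made in neurons, some also in the intestine, and they act on DAF-2, the worm's only insulin receptor, as agonists or antagonists. Active DAF-2 signals through the kinases PDK-1, AKT-1 and AKT-2 and keeps the transcription factor DAF-16 out of the nucleus, which sets dauer formation, growth, fat storage and lifespan. HLH-30, the worm counterpart of TFEB, responds to fasting and pathogens and works with DAF-16 in longevity. In C. elegans, ins-11 has been described as an intestinal signal for the avoidance of pathogens that lies downstream of HLH-30.

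Few insulin-like peptide genes had a peak of tagged HLH-30 in the promoter. Promoter windows covered the 1000 bp before and the 200 bp after every annotated 5′ end of a gene's coding transcripts, and a gene was taken as occupied when a peak had its summit there. Since trans-splicing removes the original start of many worm transcripts, true starts can lie upstream of these ends. The peaks were the 7168 of the authors' list thresholded by irreproducible discovery rate. Of the 39 genes, 2 were occupied, ins-39 and ins-12. This is 5.13% of the class (95% Wilson interval 1.42 to 16.9, counting error over genes only), against 20.1% of all protein-coding genes. The interval treats genes as independent, whereas 25 of the 39 lie in 7 clusters, described below, so it may be too narrow. The 7168 strongest entries of replicate 1 alone gave ins-12 and ins-39 again, where 20.2% of all genes were occupied. Those of replicate 2 alone gave 3 genes, with ins-35 added, where 20.0% of all genes were occupied. No test of the class against other genes was made, and the share is read as a count beside its background.

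The sequences at the 4 summits discussed most are shown for the sites they hold. Each is 101 bases on the forward strand of WBcel235 (ce11), read from the RefSeq assembly and centred on the summit. Capitals mark CACGTG or CACATG, which are E-boxes bound by basic helix-loop-helix factors, GTAAACA, the core of the DAF-16 site, or CTTATCA, a form of the GATA site of intestinal genes, on either strand. Where none of these was present, capitals mark another E-box of the form CANNTG. None of the 4 windows overlapped an annotated exon.
5′ of ins-39 (chrX:1345015-1345115): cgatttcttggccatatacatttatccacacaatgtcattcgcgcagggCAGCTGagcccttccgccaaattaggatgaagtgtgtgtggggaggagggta
5′ of ins-12 (chrII:5553687-5553787): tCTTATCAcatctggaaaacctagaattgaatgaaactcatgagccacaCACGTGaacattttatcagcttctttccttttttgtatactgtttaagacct
3′ of ins-11 (chrII:5557313-5557413): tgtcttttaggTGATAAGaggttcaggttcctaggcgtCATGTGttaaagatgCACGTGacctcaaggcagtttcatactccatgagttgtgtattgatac
5′ of ins-35, summit of replicate 2 (chrV:20374636-20374736): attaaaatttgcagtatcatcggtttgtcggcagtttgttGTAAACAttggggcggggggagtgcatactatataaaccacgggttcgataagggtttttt

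The strongest peak in a promoter of the class was at ins-39 (WBGene00017668), which lies on the reverse strand of the X chromosome from 1343758 to 1344421. The peak ran from 1344951 to 1345154, and its summit was 644 bp upstream of the annotated 5′ end. The signal value, the authors' own measure of peak strength on an unstated scale, was 87.3 in replicate 1 and 64.8 in replicate 2, or 76.0 ± 15.9 (SD, n = 2). Means and SDs of signal values assume a common scale of the replicate lists, which is not stated. In the pooled list it was 147, rank 975 of the 7168 thresholded peaks, which had a median of 61.8, a minimum of 31.9 and a maximum of 1388. In the unthresholded lists it ranked 747 of 30000 entries in replicate 1 and 1267 of 30000 in replicate 2, so it was among the stronger entries of both. The summit of replicate 1 was 603 bp upstream and that of replicate 2 was 644 bp upstream. The summit lay in no window of another protein-coding gene. The sequence printed above held an E-box over the summit, CAGCTG, at positions -1 to 4 counted from the summit base as 0, and neither CACGTG nor CACATG within 50 bp. CAGCTG was present within 50 bp of 3.95% of all thresholded summits, against 2.12% of windows centred 500 bp to the left. It was picked from this window as any CANNTG, so these shares are not the background for that search. The share of summits with any CANNTG was not counted.

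The second occupied gene was ins-12 (WBGene00002095), on the forward strand of chromosome II from 5554617 to 5555361. The peak ran from 5553639 to 5553792, with its summit 880 bp upstream of the 5′ end. Replicate 1 gave it a signal value of 41.3 and replicate 2 one of 46.1, or 43.7 ± 3.39 (SD, n = 2), and 88.4 in the pooled list, rank 2230. It ranked 2584 of 30000 entries in replicate 1 and 2206 of 30000 in replicate 2. The summit of replicate 1 lay 883 bp upstream and that of replicate 2 lay 872 bp upstream. The sequence around the summit held CACGTG at positions -1 to 4 and CTTATCA at positions -49 to -43. CACGTG was within 50 bp of 11.0% of thresholded summits, against 2.04% of windows 500 bp to the left, and CACATG was within 50 bp of 15.2% against 2.96%. CTTATCA was within 50 bp of 6.43% of summits, against 1.80% of the windows to the left.

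Beside ins-12 lies ins-11 (WBGene00002094, chromosome II, 5556731 to 5557173, forward strand), and its nearest peak was on its other side. The summit was 190 bp past the annotated 3′ end of ins-11 and 632 bp downstream of its 5′ end, in no promoter window of a protein-coding gene. Among protein-coding genes, the annotated 5′ end nearest to it was that of ins-11. The peak (5557188 to 5557537) had a signal value of 33.6 in replicate 1 and 38.6 in replicate 2, or 36.1 ± 3.54 (SD, n = 2), and 72.8 in the pooled list, rank 2945. It held CACGTG at positions 3 to 8 from the summit, CATGTG, the reverse complement of CACATG, at positions -12 to -7, and TGATAAG, the reverse complement of CTTATCA, at positions -39 to -33. The promoter window of ins-11 held no entry in the pooled list or in replicate 1. In replicate 2 it held 1 weak entry, with a signal value of 5.88 and rank 16773 of 30000, 959 bp upstream.

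The third gene of this cluster, ins-13 (WBGene00002096, chromosome II, 5544512 to 5544864, reverse strand), had 3 peaks beyond its 3′ end and none in its promoter window. Their summits were 215, 727 and 936 bp past the 3′ end. The pooled signal values were 48.3, 97.6 and 228. The strongest had 127 in replicate 1 and 101 in replicate 2, or 114 ± 18.3 (SD, n = 2). The middle one had 64.9 in replicate 1 and 31.5 in replicate 2, and the weakest had 27.5 in replicate 1 and 23.2 in replicate 2. Both replicates gave the same order. All 3 summits lay within 200 bp of small nuclear RNA genes for spliced leaders of the sls-2 class, sls-2.2 for the stronger pair and sls-2.3 for the weakest. Noncoding RNA genes also lay within 200 bp, C17C3.23 for the stronger pair and C17C3.22 for the weakest. None of the 3 summits had CACGTG or CACATG within 50 bp. How alike the copies of sls-2 are was not examined, and how reads that map to several places were handled is unknown here. The division of signal between copies is therefore uncertain.

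**Figure D1:**
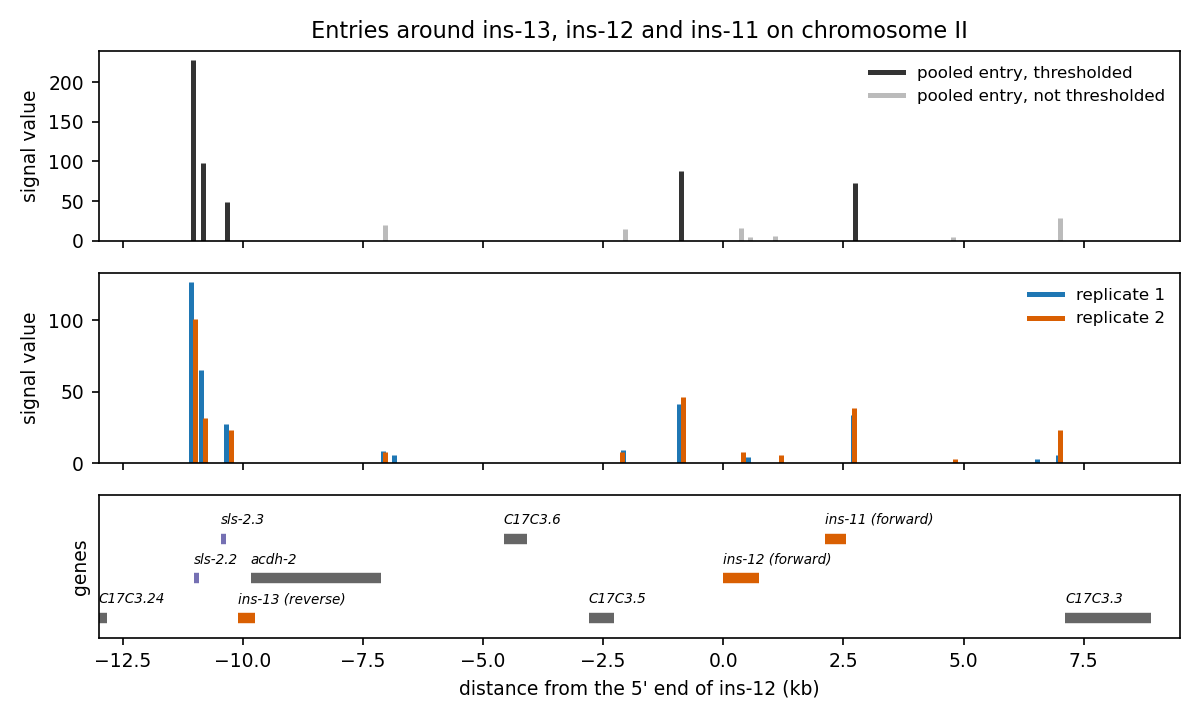
Signal value of list entries against distance from the annotated 5′ end of ins-12 in kb, with the pooled list above, replicates 1 and 2 in the middle (drawn slightly apart so both show) and annotated genes below. Thresholded entries stand at the sls-2 genes beyond ins-13 (228, 97.6 and 48.3), upstream of ins-12 (88.4) and past the 3′ end of ins-11 (72.8).

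At ins-35 (WBGene00002118, chromosome V, 20375536 to 20376302, forward strand), which is expressed in the intestine, both replicates had an entry upstream and the pooled list had none. The entry of replicate 1 had a signal value of 13.1 (rank 8956) with a summit 861 bp upstream of the 5′ end. That of replicate 2 had 19 (rank 6518), 850 bp upstream, so the summits were 11 bp apart. Of 13904 entries that lay within 100 bp of each other in both replicates, 341 (2.45%) had no pooled entry within 200 bp. The signal values of both replicates summed to 32.1 at ins-35. Among the 6819 entries with a sum of at least 31.9, the lowest thresholded value, 83 (1.22%) had no pooled entry. The 101 bases around the summit of replicate 2 held GTAAACA at positions -10 to -4 and neither of the E-boxes CACGTG and CACATG. The letters GTAAACA were within 50 bp of 2.5% of thresholded summits, against 1.31% of windows to the left.

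The remaining members had weak entries or none. The lists deposited as peaks and background hold 30000 entries each, most of them below the threshold. The pooled list had an entry in a promoter window of 5 of the 39 genes (12.8%), where 39.6% of all genes had one. Replicate 1 had one for 8 (20.5%), where 41.2% of all genes did, and replicate 2 for 9 (23.1%), where 41.6% of all genes did. In all, 6 members had an entry in both replicates, and 28 had none in any of the 3 lists. After the occupied pair, the highest pooled value was at ins-37, 20.7 (rank 10044), with 10.8 in replicate 1 and 9.40 in replicate 2. Its summit lay 52 bp inside the transcript. At ins-27 the pooled value was 9.41, with 2.59 in replicate 1 and 6.46 in replicate 2, and at ins-36 it was 7.20, with 2.58 in replicate 1 and 4.06 in replicate 2. All 3 values were below 31.9, the lowest thresholded value. The deposited −log10 q-value was 3.83 at ins-37, 0.885 at ins-27 and 0.516 at ins-36, where the median of thresholded peaks was 4.3. It was 4.3 at both ins-39 and ins-12, whose pooled signal values were 147 and 88.4, so it did not separate them by strength. At ins-35 it was 3.78 in replicate 1 and 4.31 in replicate 2, where ins-39 and ins-12 also had 4.31.

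**Figure D2:**
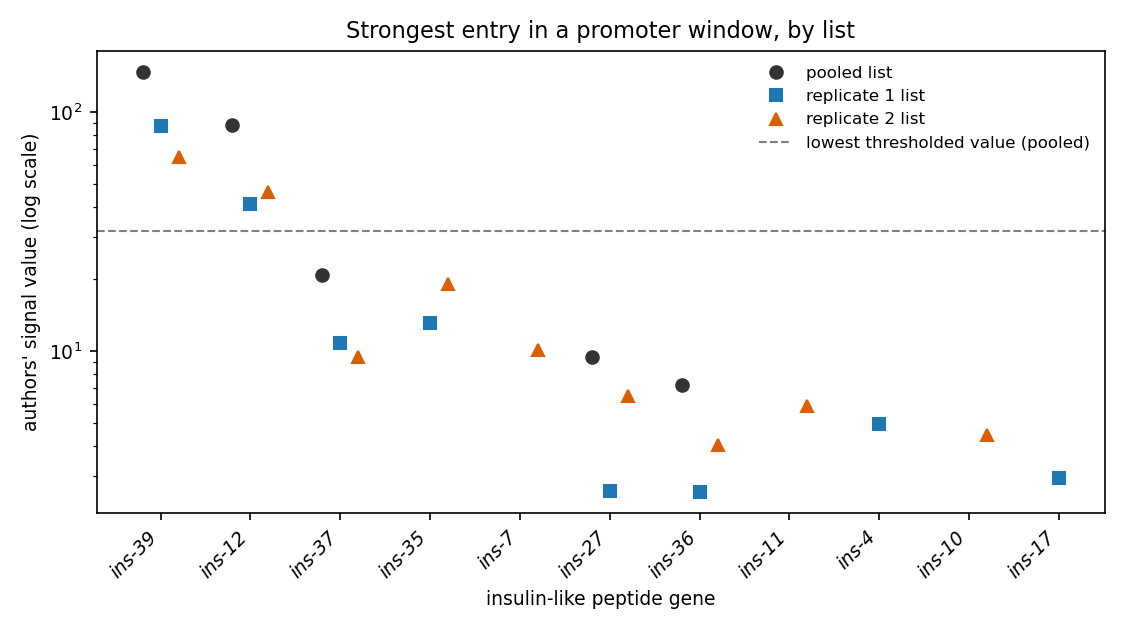
Signal value (log scale) of the strongest entry in a promoter window for the 11 insulin-like peptide genes with an entry in 1 or more of the 3 lists, as circles for the pooled list, squares for replicate 1 and triangles for replicate 2. Only ins-39 (147) and ins-12 (88.4) had pooled values above the dashed line at 31.9, the lowest thresholded value.

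Genes were also grouped by the action on DAF-2 that is ascribed to them. These lists come from general knowledge, and the roles of ins-9, ins-32 and ins-17 rest on few studies. Of 7 genes listed as agonists (ins-3, ins-4, ins-6, ins-7, ins-9, ins-32 and daf-28), 0 were occupied (Wilson interval up to 35.4%), and of 3 listed as antagonists (ins-1, ins-17 and ins-18), 0 were (up to 56.1%), beside 20.1% of all genes. Both intervals include that share, so nothing is read from either count. At ins-7, an intestinal and neuronal agonist in a feedback loop with DAF-16, only replicate 2 had an entry, of 10.1 (rank 11282), 173 bp downstream of a 5′ end. At ins-4, an agonist that acts against dauer formation, only replicate 1 had one, of 4.97 (rank 19287). For ins-6, which promotes exit from dauer, and daf-28, which inhibits dauer entry, no list held an entry in a promoter window, and the nearest thresholded summits were 26426 and 30958 bp away. For the antagonists ins-1, which acts in learning, and ins-18, the nearest summits were 7557 and 11722 bp away, and for ins-17 only replicate 1 held an entry, of 2.96.

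Within a wider distance, the class again had a lower share than all genes. A thresholded summit lay within 5000 bp of a 5′ end for 10 of the 39 (25.6%), where 44.8% of all genes had one. Besides ins-39, ins-12, ins-11 and ins-13, these were ins-7, ins-8, ins-9, ins-17, ins-35 and ins-37. Near ins-7 and ins-8, a peak with a pooled value of 247 (rank 329) lay 2506 bp past the 3′ end of ins-8 on chromosome IV, with 117 in replicate 1 and 128 in replicate 2, or 122 ± 8.29 (SD, n = 2). It had CACGTG within 50 bp of the summit and stood in no promoter window. The nearest 5′ end of a protein-coding gene was that of the nuclear receptor gene nhr-34, 2159 bp away. A weaker peak (72, with 24.7 in replicate 1 and 47 in replicate 2) lay 1055 bp from nhr-34. The summit of the peak near ins-17 (491) lay inside the noncoding RNA genes F56F3.10 and F56F3.11. This peak was in promoter windows of the ribosomal protein gene rps-1 and of ifet-1. That near ins-9 (40.6) was in those of ubc-21 and ubc-22, and that near ins-35 (66.3) was in that of K02E2.6. The peak near ins-37 (157) was in that of F08G2.5 and within 200 bp of the noncoding RNA gene F08G2.13. Of the 12 distinct peaks near members, 3 had either of these E-boxes close to the summit (50 bp), where 25.3% of all thresholded summits did, and these 3 were at ins-12, ins-11 and ins-8.

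Many of these genes lie in clusters. When members no more than 15000 bp apart were joined, 25 of the 39 fell into 7 clusters, of which 6 had no thresholded summit inside. Of these 6, 4 span only 1476 to 4946 bp, less than the median gap of 5233 bp between neighbouring summits, so an empty span says little there. The 7 genes ins-24 to ins-30 span 25409 bp of chromosome I, and the flanking summits were 107066 bp apart, rank 80 of the 7162 gaps from the longest. The cluster of ins-2 to ins-6 with ins-20 on chromosome II spans 22798 bp within a gap of 56389 bp (rank 332). The pair ins-19 and ins-31 stood in a gap of 132338 bp (rank 33) and ins-21 to ins-23 in one of 76460 bp (rank 193). The gap around ins-14 and ins-15 was 41987 bp (rank 563), and that around ins-7 and ins-8 was 29080 bp (rank 988). These ranks count each gap once, whereas long gaps cover more sequence, so they overstate how unusual the position of a gene is. Of all protein-coding genes, 37.7% lay over 10000 bp from any thresholded summit, and of the members 59% did. The cluster of ins-11 to ins-13 had 1 summit inside it, 1 at 190 bp from one end and 1 at 215 bp from the other. Over all 39 genes the median distance to the nearest thresholded summit was 11722 bp, with a range of 567 to 49912 bp, and over all protein-coding genes the median was 6187 bp. Genes of 1 cluster share their surroundings and are not independent.

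**Figure D3:**
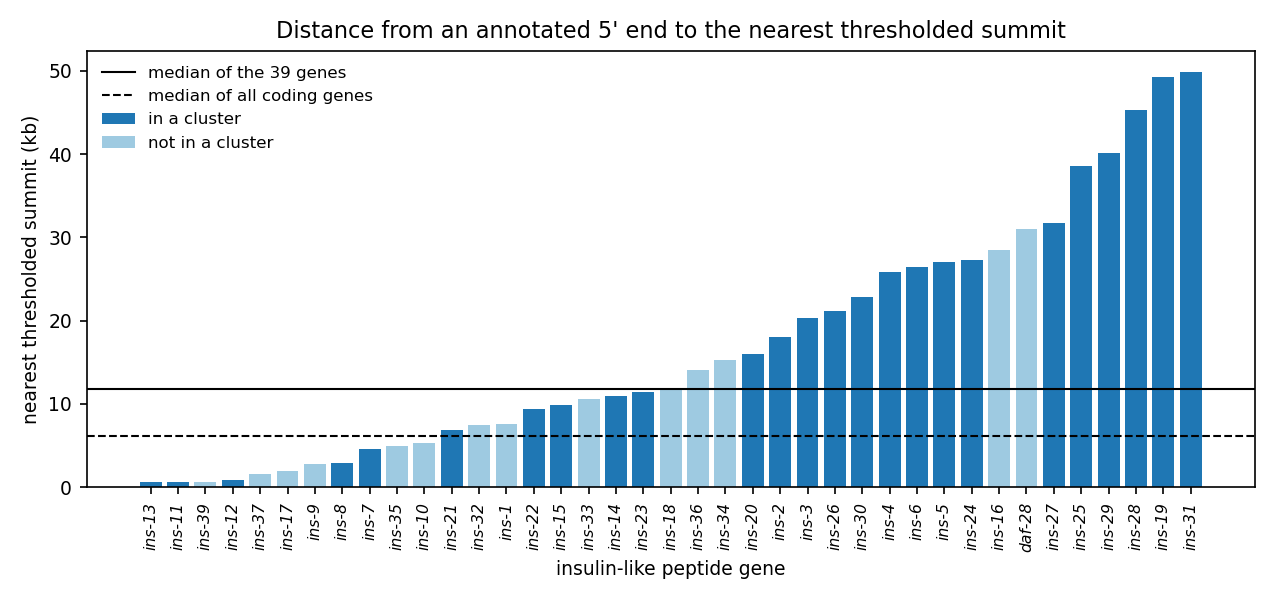
Distance in kb from an annotated 5′ end to the nearest thresholded summit for each of the 39 genes, dark for genes in a cluster and pale for the others, with lines at the median of these genes (11722 bp) and of all protein-coding genes (6187 bp). The 4 shortest bars are ins-13, ins-11, ins-39 and ins-12, and the 2 longest are ins-19 and ins-31.

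E-boxes were present in promoters of the class as in those of other genes. CACGTG stood in a promoter window of 6 of the 39 genes (15.4%), ins-6, ins-12, ins-13, ins-17, ins-32 and ins-37, and of 21.4% of all genes. Among genes with a single annotated 5′ end the shares were 17.6% of members and 18% of all. CACATG, on either strand, stood in 13 (33.3%), against 37.1% of all genes. The windows held 7 CACGTG sites, of which 1, that of ins-12, was within 50 bp of a thresholded or pooled summit, and 14 CACATG sites, of which 0 were. Over the promoter windows of all genes, 7.81% of CACGTG sites and 5.78% of CACATG sites were within 50 bp of a thresholded summit, so with so few sites the members' counts stand near the background. Counted by gene, 1 of the 6 members with CACGTG and 0 of the 13 with CACATG were occupied, against 27.9% and 23.4% of all genes with these letters. The CACGTG 95 bp upstream of the 5′ end of ins-6 was 21829 bp from the nearest pooled summit. GTAAACA stood in 10 of the 39 windows (25.6%), against 17.1% of all genes, and 0 of these 10 genes were occupied, against 24.6% of all genes with it. CTTATCA stood in 11 (28.2%), against 26.5% of all genes. A motif match is a description of the sequence and not evidence of a site.

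The number of annotated starts and the chromosome bear on such shares. Of the 39 genes, 34 had a single annotated 5′ end, of which 2 (5.88%, Wilson interval 1.63 to 19.1) were occupied. Over all genes with a single 5′ end 15.6% were, a share that this interval includes. When each member was given the share of its chromosome, which ran from 14.9% on V to 26.9% on III, the mean was 20.7%. Expression and accessible chromatin at L4 were not measured in these files, and their part in the low count was not tested.

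Other peptide classes had shares below that of all genes, and the genes that process and release peptides and those of the receptor cascade had shares above it. FMRFamide-like peptide genes (flp) were occupied at 1 of 31 (3.23%), flp-23, with a pooled value of 52.8. The Wilson interval was 0.572 to 16.2. Other neuropeptide genes (nlp) were occupied at 9 of 71 (12.7%, interval 6.81 to 22.4, which includes the 20.1% of all genes), led by nlp-29 (68.7), nlp-76 (68.3), nlp-33 (60.6) and nlp-4 (49.2). Of these, nlp-29 and nlp-33 encode antimicrobial peptides of the epidermis. Of 12 genes for peptide processing and secretion, 8 were occupied (66.7%, Wilson interval 39.1 to 86.2). The strongest were snb-1, the synaptobrevin of secretory vesicles, with a pooled value of 202 (113 in replicate 1 and 96.6 in replicate 2), and sbt-1, a chaperone of the convertase EGL-3, with 129 (60.3 and 68.5), whose peak also lay in the window of num-1. They were followed by egl-21, a carboxypeptidase of neuropeptide processing, with 70.3 (29.6 and 43.9), and aex-5, a proprotein convertase needed for normal defecation, with 57.3 (19.5 and 36.5). The convertase genes egl-3 and kpc-1 had none. Of 11 genes of the receptor cascade, 5 were occupied (45.5%, interval 21.3 to 72.0). The strongest was the kinase gene akt-2, with a pooled value of 260.2 (137 in replicate 1 and 125 in replicate 2). The transcription factor gene daf-16 had 119 (58.5 and 60.4), and the kinase genes akt-1 and sgk-1 had 62.7 (32.8 and 31.2) and 44.2 (16.8 and 26.7). The phosphatase subunit gene pptr-1 had 36.5. The receptor gene daf-2 and the phosphoinositide 3-kinase gene age-1 had none. The processing and cascade lists were chosen with earlier results of these data known, so their intervals do not cover the choice of genes. Their shares were not restricted to genes with a single annotated 5′ end. The difference between these lists and the peptide genes was not tested.

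**Figure D4:**
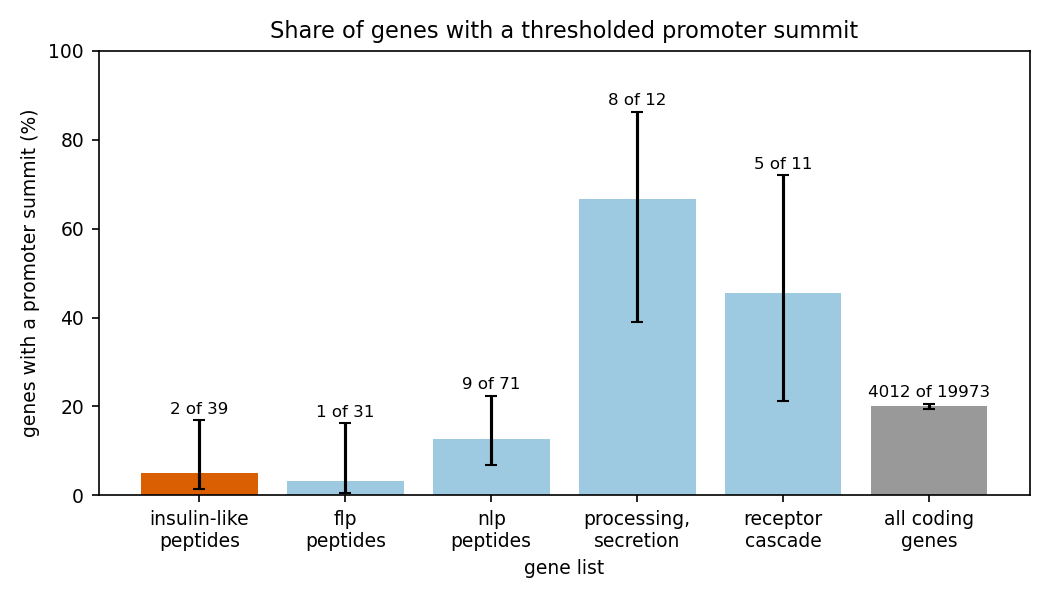
Percent of genes with a thresholded summit in a promoter window, with 95% Wilson intervals for counting error over genes, for the insulin-like peptide genes (2 of 39), the flp and nlp peptides, the processing and secretion list, the receptor cascade and all protein-coding genes (4012 of 19973). The insulin-like peptide genes stand at 5.13%, against 20.1% of all genes.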

How the data were processed

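ChIP-seq of tagged HLH-30 was deposited as peak lists on the build ce11 for replicate 1, replicate 2 and both pooled, made by the authors from the alignments and a further file that is not described there (the labels name a possible control), and as 1 list thresholded from them by irreproducible discovery rate, per the labels and the text that came with the samples. The caller, the aligner and the cutoff are not stated there. The antibody is anti-GFP in the labels' description, whereas another label field names hlh-30. The signal value, the −log10 q-value and the summit offset of each entry are the authors' deposited values. Ranks and thresholds were used within a list, and the replicates' signal values were set side by side and averaged, although a common scale is not stated. No read counts are in these lists, so depth is unknown. Lists on ce10 were not used here. Replicate values of a peak are those of the overlapping entry with the nearest summit.

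Summits were joined to the Ensembl release 115 annotation of WBcel235, which is ce11, and sequence was read from the RefSeq assembly, in Python 3.11.15 with pandas 2.3.3. After the data were seen, the share of all promoter E-boxes near a summit was added as a background. The join and the motif search were tested on simulated data. No hypothesis test was made: counts stand beside the share over all genes, with Wilson intervals from statsmodels 0.14.6. Genes named are the members with a promoter summit, with a thresholded summit within 5000 bp or with the highest pooled values, the well-studied members, and at most 4 occupied genes of each other list by signal; pptr-1, egl-3, kpc-1, daf-2 and age-1 were added after their values were seen. The members follow from gene names alone, but the class and the other lists were chosen with earlier results of these data known.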

Additional observations from a re-analysis of the deposited data

How the results depend on the processing

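The count of 2 occupied members held with the wider window (2000 bp upstream to 500 bp downstream), with windows from the start of the coding sequence, with whole peaks in place of summits, with the stronger part of the thresholded list and with the strongest 10000 pooled entries. It was 0 with a window of 500 bp upstream to 100 bp downstream, since both summits lay over 500 bp upstream, where 15.8% of all genes were occupied. It was 4 (10.3%) when each summit went to the nearest 5′ end of a protein-coding gene within 1000 bp, where 17.4% of all genes were occupied. This adds ins-11 and ins-13, although the summit 567 bp from the 5′ end of ins-13 lay within 200 bp of sls-2.3. Without 1 replicate the count of occupied members was 2 to 3, and the share of all genes was 20.0% to 20.2%. That share was 11.7% with the stronger part of the list. Members with any entry in a promoter window numbered 5 in the pooled list, 1 with the narrower window, 6 with the wider one, and 8 to 9 in the list of a single replicate. The count of member summits with CACGTG or CACATG within 50 bp was 1. It was also 1 within 25 bp, within 100 bp and without either replicate. It was not counted under the other promoter windows or the nearest 5′ end. Relative to the median thresholded peak, the signal of ins-39 was 2.37 pooled and 2.02 to 2.76 in single replicates, and that of ins-12 was 1.43 pooled and 1.30 to 1.44. No paired analysis was possible because all samples belong to 1 group. Weak sites are limited by a depth that is unknown.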

Other observations

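The peaks beside ins-13 led to a count of spliced leader genes, made after the data were seen. Of 18 annotated sls-2 genes, which encode the SL2 RNA that caps downstream genes of operons, 12 had a thresholded summit within 500 bp. Of 12 sls-1 genes, which encode the SL1 RNA, 0 did, and of 99 other genes annotated as small nuclear RNAs 18 did. The likeness of the copies within each sls class was not examined. The authors' treatment of reads with several possible positions is also unknown, so the counts describe the deposited list only.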
